A study of Mus musculus with 6 samples.

Results

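Immediate early transcription factors are genes that cells switch on within minutes of a stimulus, without first making new protein. The 10 genes described here are Fos, Fosb, Jun, Junb, Atf3, Egr1, Egr2, Egr3, Nr4a1 and Ier2. The rule lists them by name as stimulus-induced transcription regulators. Each was read by 1 probe, so the set is 10 probes of the 39429 on the array and 10 of the 19751 genes that could be named. All 10 probes passed the filter on low signal.

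The samples are whole testes of male C57BL/6J mice, 10 weeks old, with 1 array for each of 6 mice. The TAp73 knockout and the wild type group had 3 mice each, and no label says whether the mice were littermates. TAp73 is the group of p73 isoforms that carry the transactivation domain, encoded by Trp73, a relative of the p53 gene. The knockout is named in the labels only as TAp73 KO, with no exon and no Cre driver given. The mice were killed with carbon dioxide and RNA came from the whole organ, so all cell types of the testis contribute.

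Growth factors, hormones, depolarisation and stress reach these genes through MAP kinases, protein kinase A and calcium. The signal is passed on by factors that are already present, such as SRF with its ETS partners at CArG boxes and CREB at cyclic AMP response elements. Fos and Jun family proteins pair as AP-1, EGR proteins bind GC-rich DNA through zinc fingers, and Nr4a1 is an orphan nuclear receptor. The transcripts are short-lived. In the testis, Nr4a1 is known as a gene that luteinising hormone induces in Leydig cells, where it acts on steroid enzyme genes.

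Array quality was not uniform. Between 3.62% and 4.45% of probes were saturated on the arrays of slide 1 (knockout replicates 1 and 2, wild type replicates 1 and 3). On slide 2 (knockout replicate 3, wild type replicate 2) the shares were 1.59% and 1.73%. Between 74.4% and 84.4% of probes were well above background on an array, and knockout replicate 1 stood apart, with a first principal component score of -66.2 where the other 5 had -4.91 to 30.8. Trp73, the targeted gene, has 3 probes, and all were called lower. A_52_P193555 gave 17.2, 4.81 and 5.17 units of processed signal in the knockouts and 605, 548 and 587 in wild type (adjusted p = 0.00369) and was well above background in 1 of 3 knockouts. A_55_P1988133 differed by -3.21 log2 units (adjusted p = 0.00213) and A_52_P410636 by -0.99 (adjusted p = 0.0104), with 566, 371 and 394 units left in the knockouts against 1077, 975 and 1061 in wild type. No source used here places the probes relative to the deletion. In the value table that the authors deposited, genotypes are the other way round. Over probes, in deviations from the mean of all arrays, each array correlated best (r = 0.968 to 0.994) with a column of the other genotype and negatively (-0.403 to -0.271) with the column of its own name. All directions below follow the scanner files, and under the table's labels each of them turns round.

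Levels below are processed signal in scanner units, or log2 of that signal minus the 75th percentile of the array. Differences are knockout minus wild type on the log2 scale from limma, and a probe was called where its p, adjusted over all 31801 tested probes, was under 0.05.

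Of the 10 genes, Atf3 and Egr2 were called lower in the knockout testes and 0 were called higher. Atf3 passed the filter on low signal only through the wild type group, where it is high, and a probe that passes in this way had to differ. Its call is therefore no support, and the counts and the median below include it. Among the 8 genes well above background on all arrays, which leaves out Atf3 and Junb, Egr2 and Fos were called lower. Under that stricter filter 1109 of 29028 probes were called lower and 165 higher. The median difference was then -0.21 over the 8 genes and 0.06 over all probes. Over all tested probes, Fos had a difference of the same size as Egr2 but an adjusted p of 0.0613. Over all tested probes, 2.64% were called lower and 0.248% higher, and over all genes, each by its brightest probe, 3.53% and 0.218%. Both called genes were more than 2-fold lower, and 0.509% of all tested probes were both called and at least 2-fold lower. In 4 of the genes (Atf3, Egr2, Fos and Junb) every knockout testis lay below every wild type testis, against 13.1% of all probes, and in 1 (Egr3) every knockout testis lay above, against 18.6% of all probes. A count of 1 in 10 genes is no more than that last background share. The remaining 5 genes, Fosb, Jun, Egr1, Nr4a1 and Ier2, overlapped between the groups. The median difference was -0.48 over the 10 genes and 0.06 over all tested probes, with a range from -2.15 to 0.41. With no adjustment for multiple tests, limma gave 4 genes lower and 1 higher at p under 0.05, against 10.9% of all probes lower and 12.3% higher.

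**Figure D1:**
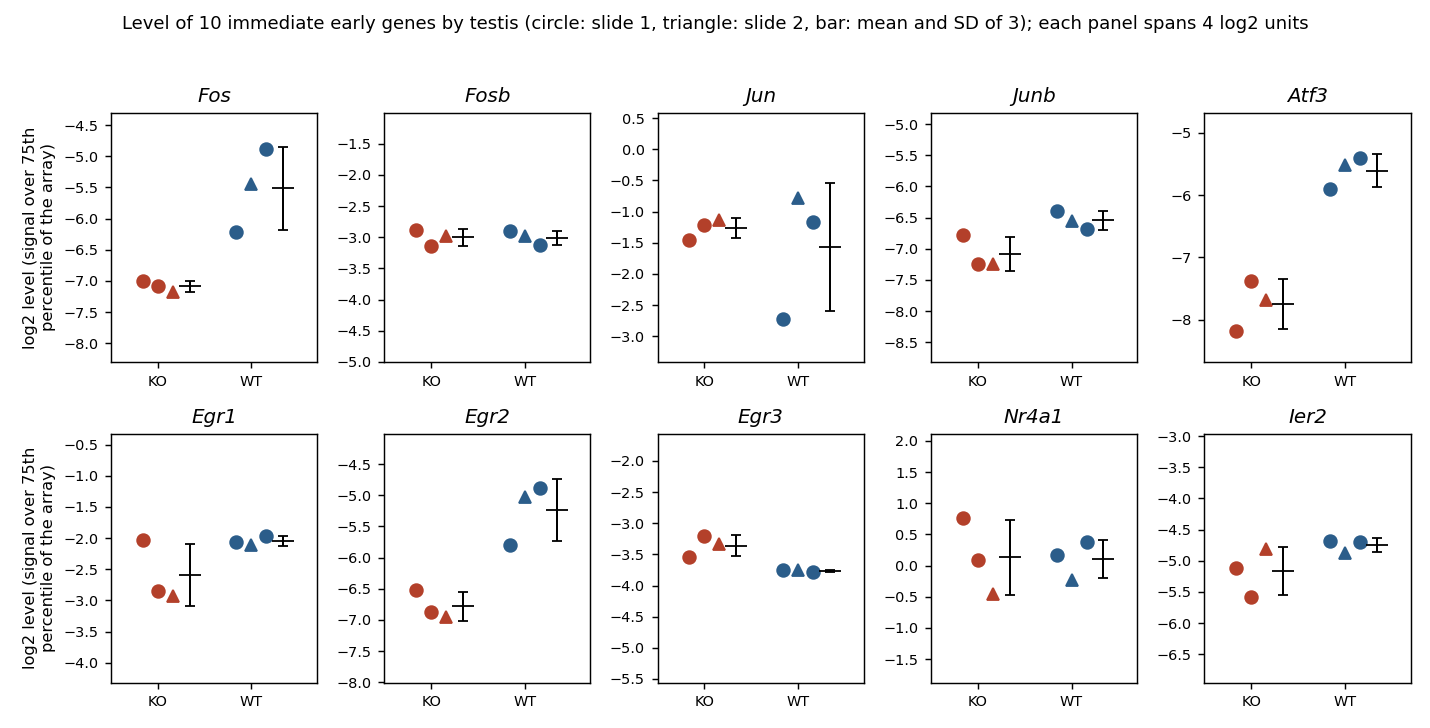
Log2 level of each gene in each testis (y axis, processed signal over the array's 75th percentile; each panel spans 4 log2 units), with knockout (KO) points left of wild type (WT) points, circles for slide 1, triangles for slide 2, and the mean with its SD over 3 mice beside each group. Atf3, Egr2, Fos and Junb have all KO points below all WT points, Egr3 has them above, and the other panels overlap.

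The starts of the genes are shown for Atf3, Egr2 and Fos, the 3 that differed by more than 1.5 log2 units, and for Nr4a1, whose groups overlapped. Each line is the 120 bases before the transcription start, read 5′ to 3′ from RefSeq's mouse assembly GRCm38.p6. Capitals mark the core of the cyclic AMP response element, TGACG, or CGTCA where it lies on the other strand.
Atf3, chr1:191183334-191183453, minus strand: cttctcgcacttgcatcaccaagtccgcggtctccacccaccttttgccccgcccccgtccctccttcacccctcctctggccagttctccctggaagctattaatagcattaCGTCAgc
Egr2, chr10:67537749-67537868, plus strand: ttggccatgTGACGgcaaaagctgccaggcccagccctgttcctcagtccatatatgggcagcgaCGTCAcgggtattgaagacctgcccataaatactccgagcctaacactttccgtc
Fos, chr12:85473770-85473889, plus strand: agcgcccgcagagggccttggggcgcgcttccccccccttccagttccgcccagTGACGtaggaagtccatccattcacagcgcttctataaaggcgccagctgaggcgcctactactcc
Nr4a1, chr15:101266726-101266845, plus strand: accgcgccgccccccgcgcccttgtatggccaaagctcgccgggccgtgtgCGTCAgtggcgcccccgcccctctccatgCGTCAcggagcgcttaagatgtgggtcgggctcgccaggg

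The core, searched on both strands, was found in 6 of the 7 genes with a promoter in the RefSeq table, and in 11.7% of all 32851 promoters over the same 120 bases. Counted from the start site, its first base lay at -7 in Atf3, -66 in Fos, -60 in Fosb, -106 in Junb, -111 and -55 in Egr2 and -69 and -40 in Nr4a1, and it was not found in Jun. The 8-letter element TGACGTCA, which is its own reverse complement and holds both forms of the core, was in 0 of the 7 and in 1.24% of promoters. Within these 120 bases Egr2 alone among the 7 had a CArG box, at -72, against 0.749% of promoters. Bases further from the start were not searched, and Egr1, Egr3 and Ier2 were not among the 7. Fos alone had TATAAA (either strand), at -33, against 6.34% of promoters. Egr2 has 5 starts in the table and the middle one is shown. The genes with the core include Atf3 and Egr2, which were called lower, and Fosb and Nr4a1, whose differences were close to 0.

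Among the AP-1 genes the values spread widely. Atf3, a bZIP factor of the ATF/CREB family that stress induces, read 17.7, 24.7 and 21.3 units in the knockouts and 95.1, 114 and 128 units in wild type. Its spot was well above background in 0 of 3 knockout testes and in 3 of 3 wild type testes. Its log2 level averaged -7.75 ± 0.40 in the knockouts and -5.61 ± 0.26 in wild type (SD, n = 3 each). With each knockout value raised, where it was lower, to its array's lowest signal well above background, the wild type mean was 4.21-fold higher. Knockout values above that signal were kept as read, though none was well above background, so 4.21-fold is no lower limit. The fitted difference was -2.15 (SE 0.23, 95% confidence interval -2.705 to -1.587, adjusted p = 0.0123). Before any background was taken off, its spot had a median pixel signal of 51, 51 and 54.5 in the knockouts and 110, 134 and 131 in wild type, over a local background of 21 to 33.5 units.

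The plain difference of Atf3 between group means, without a fit, was -2.13 on slide 1 and -2.17 in the pair on slide 2. On both slides the knockout spots were not well above background. With 2 mice a group on slide 1, limma called 0 of the 31801 probes, with 1813 lower and 1336 higher at p under 0.05 before adjustment. The call was lost without knockout replicate 3 (adjusted p = 0.0616), wild type replicate 2 (0.0764) or wild type replicate 3 (0.0561), with differences of -2.18 to -2.05. Under normexp background correction the difference was 0.30 (adjusted p = 0.774).

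Fos, the first known partner of Jun in AP-1, read 40.4, 30.6 and 30.1 units in the knockouts and 76.8, 119 and 183 units in wild type. The knockouts lay close together, and among the wild type mice replicates 1 and 3 differed by more than 1 log2 unit. The log2 level averaged -7.09 ± 0.09 in the knockouts and -5.51 ± 0.66 in wild type (SD, n = 3 each). The difference was -1.57 (SE 0.32, 95% confidence interval -2.34 to -0.81, adjusted p = 0.0613), so Fos was not called. Without wild type replicate 1 it was called at -1.92 (adjusted p = 0.0233). Leaving out any 1 of the other arrays gave no call (adjusted p = 0.0996 to 0.2002). It was also not called with slide as a block (adjusted p = 0.121) or with no filter on dim probes (0.119). Under normexp its difference was 0.15 (adjusted p = 0.88). On slide 1 the difference was -1.49 and in the slide 2 pair -1.74.

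The Fos probe is printed 10 times on each array, which gives a measure of technical error. The SD over the 10 spots was 0.185 to 0.259 log2 units on the knockout arrays and 0.0703 to 0.369 on the wild type arrays. All 10 spots enter these SDs, also any flagged as outliers, which the Fos level above leaves out. The brightest of the knockout spots read 49.8 units and the dimmest of the wild type spots 66.1 units, so the spots of the groups did not overlap. Spots of 1 array are 1 mouse, and they add nothing to the number of replicates.

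**Figure D2:**
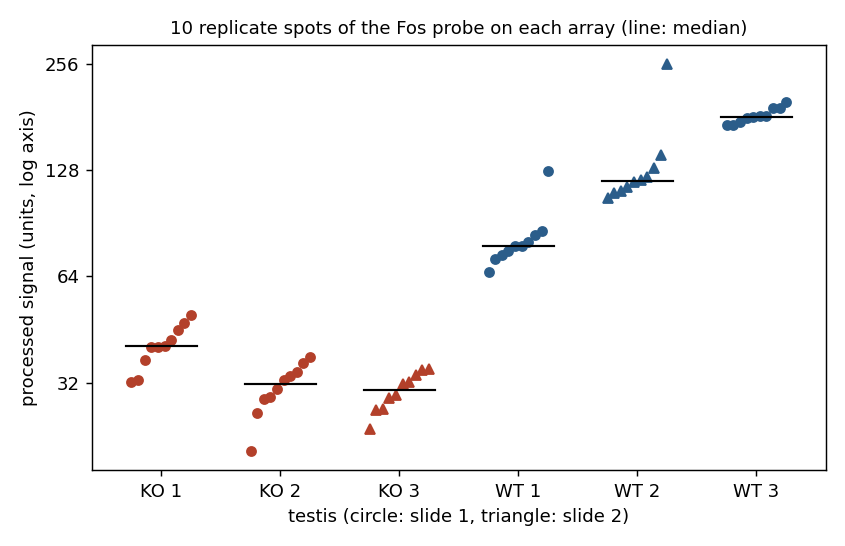
Processed signal (y axis, log scale, scanner units) of the 10 replicate spots of the Fos probe on each array, with knockout (KO) arrays left of wild type (WT) arrays, circles for slide 1, triangles for slide 2 and a line at each median. The KO medians are 40.6, 31.6 and 30.6 units and the WT medians 78.1, 119 and 182 units, and no KO spot reaches the lowest WT spot.

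Junb, a Jun family protein that also restrains Jun activity, read 47.1, 27.3 and 28.8 units in the knockouts and 67.6, 55.2 and 52.6 units in wild type. It was well above background in 2 of 3 knockout testes. The groups did not overlap, but the difference of -0.54 (SE 0.16, adjusted p = 0.123) did not pass the test, and it was 0.69 under normexp (adjusted p = 0.534).

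Fosb, the Fos paralog whose protein accumulates in brain after repeated stimuli, read 702, 468 and 554 units in the knockouts and 760, 654 and 620 units in wild type. After scaling the groups lay on top of each other, with a difference of 0.00 (95% confidence interval -0.24 to 0.25, adjusted p = 0.982). The interval does not reach the difference of Fos or of Atf3.

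Jun, the AP-1 subunit that can also pair with itself, read 1893, 1773 and 1999 units in the knockouts and 860, 3002 and 2414 units in wild type. Wild type replicate 1 lay far below the other arrays. The difference was 0.29 (95% confidence interval -0.88 to 1.46, adjusted p = 0.726) and was -0.29 without wild type replicate 1 (adjusted p = 0.348). No direction can be given for Jun, and the interval includes changes of more than 2-fold upward.

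The set holds Egr1, Egr2 and Egr3, which code for closely related zinc finger proteins, and 1 of these 3 was called. Egr2, known for its part in hindbrain patterning, myelination and lymphocyte tolerance, read 56.5, 35.4 and 35.2 units in the knockouts and 102, 159 and 183 units in wild type. Every knockout value lay below every wild type value. Its log2 level averaged -6.78 ± 0.24 in the knockouts and -5.24 ± 0.49 in wild type (SD, n = 3 each). Egr2 fell 2.91-fold in knockout testes (difference -1.54, SE 0.26, adjusted p = 0.0401) and ranked 70th of 16947 genes by its fall. The difference was -1.35 on slide 1 and -1.93 in the slide 2 pair.

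The Egr2 call was near the threshold. It was lost without knockout replicate 1 (-1.67, adjusted p = 0.0658), replicate 2 (-1.50, 0.142) or replicate 3 (-1.45, 0.14), and without wild type replicate 2 (-1.43, 0.16) or replicate 3 (-1.36, 0.109). With the difference still at -1.54 it was also lost with slide as a block (0.0914) and with no filter on dim probes (0.0865). Without wild type replicate 1 it was -1.82 (adjusted p = 0.0199), and under normexp 0.04 (adjusted p = 0.963).

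Egr1, a broadly expressed EGR factor that the pituitary needs to make luteinising hormone, read 1267, 576 and 577 units in the knockouts and 1355, 1202 and 1389 units in wild type. Knockout replicates 2 and 3 were below every wild type testis, and knockout replicate 1 lay within the wild type range. The difference was -0.55 (SE 0.24, adjusted p = 0.231) and did not pass the test. Without knockout replicate 1 it was -0.84 (adjusted p = 0.0255), so that 1 array decided the call.

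Egr3, an EGR factor of muscle spindles and lymphocytes, read 442, 449 and 436 units in the knockouts and 424, 383 and 392 units in wild type. On the log2 scale the levels were -3.54, -3.20 and -3.33 in the knockouts and -3.75, -3.76 and -3.79 in wild type. The knockout values were all above the wild type values, by 0.41 (SE 0.10, 95% confidence interval 0.16 to 0.65), but this did not pass the test (adjusted p = 0.0963). The interval of Egr3 lay above 0 and that of Egr2 (-2.17 to -0.91) below it. The 75th percentile used for scaling was itself 0.26 log2 units higher in wild type, a shift that enters every difference.

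Nr4a1, the orphan nuclear receptor also called Nur77, read 8719, 4398 and 3197 units in the knockouts and 6389, 4418 and 7043 units in wild type. The knockouts spanned the wild type range in both directions. The difference was 0.03 (95% confidence interval -0.75 to 0.80, adjusted p = 0.966), and it was -0.29 without knockout replicate 1 and -0.14 without wild type replicate 2.

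Ier2, a small nuclear protein induced by growth factors, read 149, 86.5 and 156 units in the knockouts and 221, 177 and 210 units in wild type. After scaling, knockout replicate 3 (-4.81) lay above wild type replicate 2 (-4.88), so the groups overlapped. The difference was -0.42 (95% confidence interval -0.89 to 0.06, adjusted p = 0.252), with -0.66 on slide 1 and 0.06 in the slide 2 pair.

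**Figure D3:**
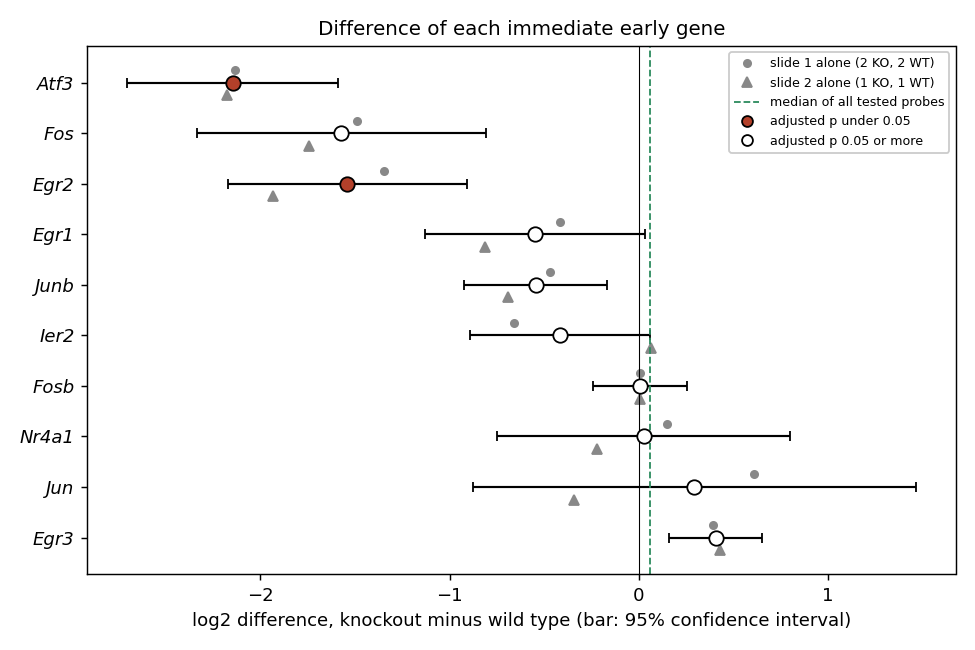
Log2 difference of each gene (x axis, knockout minus wild type, 95% confidence interval from limma), with called genes filled, grey circles for slide 1 alone and grey triangles for the slide 2 pair. Atf3 (-2.15) and Egr2 (-1.54) are filled, Fos (-1.57) is not, and the slide values of Ier2, Nr4a1 and Jun lie on both sides of 0.

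Genes that act with these factors were taken from 7 lists of relatives, other early response genes and upstream factors. Of 111 genes, 104 were measured, and 8 were called lower and 0 higher (7.69% and 0%). Over all genes, each by its brightest probe, 3.53% were called lower and 0.218% higher. Before adjustment, limma gave p under 0.05 for genes on the lower side in all 7 lists. Of the AP-1 relatives 3 were lower and 1 higher, and of the other regulators 6 and 0. The effector genes gave 13 and 0 and the heat shock genes 3 and 2, and the counts of the remaining lists are below. Over all probes 10.9% were lower and 12.3% higher at that threshold. Genes higher at p under 0.05 were in 5 of the 7 lists. In the list of upstream factors the only such gene, Elk1, was saturated on 5 arrays. The count of 8 was 4 without knockout replicate 1 or wild type replicate 1 and 0 without any 1 of the other 4 arrays.

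Among AP-1 relatives, 1 of 12 measured genes fell, 0 rose and 11 did not pass (median -0.06). The gene that fell was Fosl2, which codes for the Fos family protein Fra-2. It read 428, 336 and 304 units in the knockouts and 770, 810 and 1121 units in wild type, without overlap (difference -1.08, SE 0.17, adjusted p = 0.0335). Maff, a small Maf protein, had a difference of -0.74 (adjusted p = 0.0699). None of the 5 measured relatives of EGR and NR4A genes and EGR corepressors passed (limma; 1 lower and 1 higher before adjustment at p under 0.05; median 0.17). The smallest p-values there were those of the corepressor Nab1 (-0.28, adjusted p = 0.128) and the receptor Nr4a3 (0.28, adjusted p = 0.185).

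In the list of other early response transcription regulators 2 of 18 genes fell, 0 rose and 16 did not pass (median -0.23). They were Klf6, a Krüppel-like zinc finger factor (-0.75, SE 0.11, adjusted p = 0.0273), and Cebpd, a bZIP factor of inflammation (-0.80, SE 0.13, adjusted p = 0.033). Ier3, a growth factor response gene picked here after its values were seen, had a difference of -1.84 (adjusted p = 0.0519).

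Early response effector genes, which code for enzymes, signalling and matrix proteins rather than transcription factors, had a median of -0.47. Of 19 measured genes 4 fell, 0 rose and 15 did not pass. In 13 of the 19 the groups did not overlap with the knockouts lower, against a share of 13.1% among all probes. Sgk1, a kinase of ion transport, read 959, 810 and 810 units in the knockouts and 1491, 1315 and 1415 units in wild type (-0.46, adjusted p = 0.0278). The others were Rgs2, a regulator of G protein signalling (-0.57, adjusted p = 0.0318), the small GTPase Rhob (-0.63, adjusted p = 0.0318) and the matrix protein Thbs1 (-0.56, adjusted p = 0.0489).

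Feedback phosphatases and mRNA decay factors, which shut the early response down, gave 0 calls among 16 genes (limma; 4 lower and 2 higher before adjustment; median -0.08). The smallest p-values were those of the ERK phosphatase Dusp5 (0.47, adjusted p = 0.107) and of Zfp36l2, which binds AU-rich mRNA (-0.32, adjusted p = 0.121). The 26 upstream factors and kinases gave 0 calls too (limma, 7 lower and 1 higher before adjustment, median -0.07). Among the 24 saturated on no array, 7 were lower and 0 higher before adjustment in limma. The smallest p-values were those of the transcription factor Mef2c (-0.64, adjusted p = 0.0634) and the CREB coactivator Crtc1 (-0.36, adjusted p = 0.0923). Among 8 heat shock genes, which code for chaperones and co-chaperones, 1 fell and 0 rose (median 0.12, or -0.13 over the 6 that were saturated on no array). It was the small heat shock protein gene Hspb1 (-0.63, SE 0.07, adjusted p = 0.015).

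**Figure D4:**
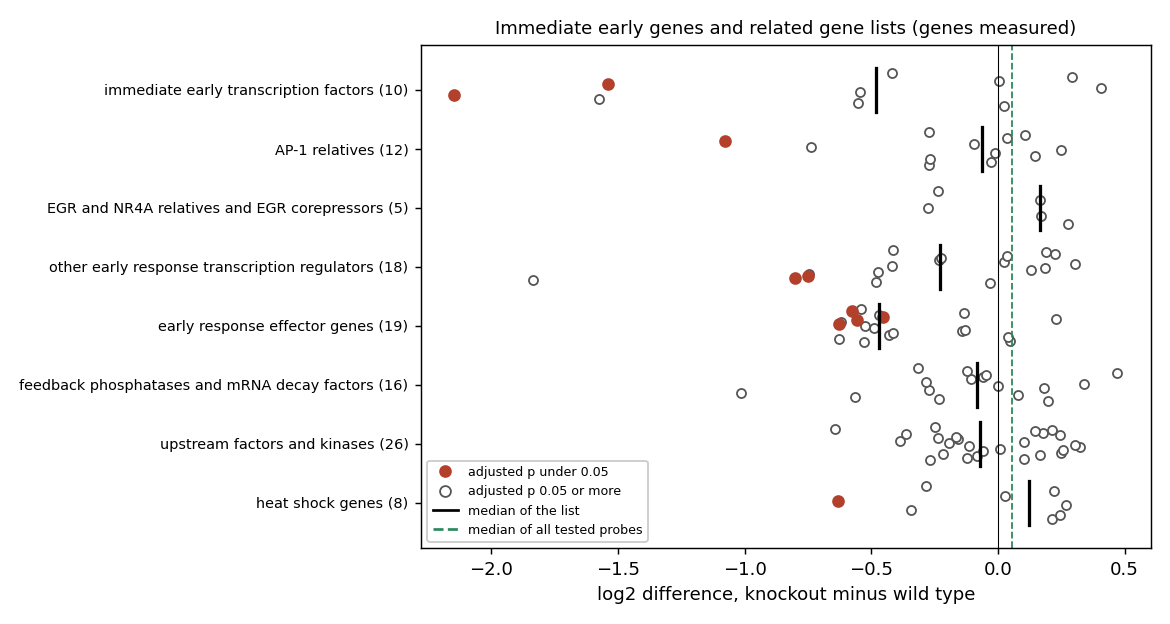
Log2 difference (x axis, knockout minus wild type) of each measured gene in the set of 10 and in the 7 related lists, with called genes filled, a black line at each list's median and a dashed line at the median of all tested probes (0.06). The effector list lies furthest left of the related lists, with a median of -0.47, and the filled points are all on the lower side.

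The mean deviation of the 10 genes from their own averages was -0.18, -0.35 and -0.38 in the knockouts and 0.07, 0.37 and 0.47 in wild type. Among the related genes, the 5 whose 6 array values followed this mean best were Thbs1 (Pearson r = 0.988), Maff (0.981), Tnfaip3 (0.98), F3 (0.979) and Fosl2 (0.976). These are descriptions over 6 arrays that fall into the groups compared, and much of each r is the group difference itself.

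Markers of several cell types of the testis also differed between the same arrays. In bulk tissue, fewer cells of a type and less RNA per cell cannot be told apart. Of 18 macrophage and leukocyte markers 16 were measured and 4 fell, among them Cd74, an antigen presentation chain (-1.11, adjusted p = 0.0124), with a list median of -0.22. Their summed level, in multiples of the array's 75th percentile, was 27.8 to 31.5 in the knockouts and 28.6 to 29.1 in wild type. That sum includes Aif1, saturated on 5 of 6 arrays, and over the other 15 markers it was 13.0 to 14.2 in the knockouts and 14.7 to 16.6 in wild type, without overlap. Of 14 Sertoli cell markers all were measured and 4 fell, among them Sox9 (-0.64, adjusted p = 0.0186), with a median of -0.38 and summed levels of 53.0 to 58.1 in the knockouts and 59.1 to 63.2 in wild type. Over the 12 Sertoli markers that were saturated on no array, which leaves out Clu and Ctsl, the sums were 26.7 to 27.9 in the knockouts and 36.3 to 38.7 in wild type. Of 10 Leydig cell markers 9 were measured and 2 fell (median -0.29, highest 0.63, summed 18.7 to 29.1 in the knockouts and 24.3 to 35.7 in wild type). Over all genes by brightest probe 3.53% were called lower. Before adjustment limma gave p under 0.05 for 7 lower and 0 higher macrophage and leukocyte markers. For Sertoli cell markers it gave 10 lower and 1 higher, with 0 higher among those saturated on no array, and for Leydig cell markers 3 lower and 1 higher.

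The 7 peritubular myoid markers gave 1 fall (median -0.18, summed 19.3 to 20.1 in the knockouts and 19.1 to 23.9 in wild type), and the 10 endothelial markers gave 0 (median -0.11, summed 5.45 to 5.82 in the knockouts and 4.97 to 5.54 in wild type). Of 8 blood cell markers 5 were measured and 0 were called, with a median of -0.41 and summed levels of 4.47 to 7.30 in the knockouts and 6.94 to 8.93 in wild type. Among germ cell markers with no saturated spot, the medians were -0.16 for 9 spermatogonia, 0.20 for 9 spermatocyte and 0.21 for 4 round spermatid markers, with 0 calls. Their summed levels were 7.98 to 8.90 in the knockouts and 8.73 to 10.6 in wild type for spermatogonia, 34.3 to 35.2 in the knockouts and 28.2 to 30.4 in wild type for spermatocytes, and 31.4 to 33.7 in the knockouts and 28.3 to 28.8 in wild type for round spermatids. All 10 elongating spermatid markers were saturated on at least 1 array, so no difference is given for them. Before adjustment limma gave p under 0.05 for 1 lower and 1 higher peritubular myoid marker and 3 lower blood markers. It did so for 1 lower and 1 higher endothelial marker and for 1 lower and 1 higher spermatogonia marker. The 3 spermatocyte and 3 round spermatid markers with p under 0.05 were all higher. No measured marker of these lists was at 0. Leaving out saturated probes was chosen after seeing the data. The part of these cell types in the values of Atf3, Egr2 and Fos was not tested.

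Among the settings tried on the scanner files, normexp background correction moved Atf3, Fos, Egr2 and Junb most. Knockout replicate 1 held 44 spots more than 50 units below their own local background, the lowest at -15195.5 units, against 0 to 2 such spots on the other arrays. With them the fitted normexp background of that array was -495.6 units, against -24.5 to -0.98 for the other 5. Leaving those spots out was chosen after seeing the data. The fitted background of that array was then -36.2 units and the differences were -0.41 for Atf3 (adjusted p = 0.0901), -0.53 for Egr2 (0.12), -0.49 for Fos (0.148) and 0.08 for Junb (0.701). Normexp with quantile normalization gave -0.60 for Atf3 (adjusted p = 0.044), -0.60 for Egr2 (0.119), -0.61 for Fos (0.147) and -0.18 for Junb (0.531). Under both of these settings Atf3, Fos and Egr2 kept a negative difference, of smaller size than without normexp, which adds an offset of 50 units to each spot.

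**Figure D5:**
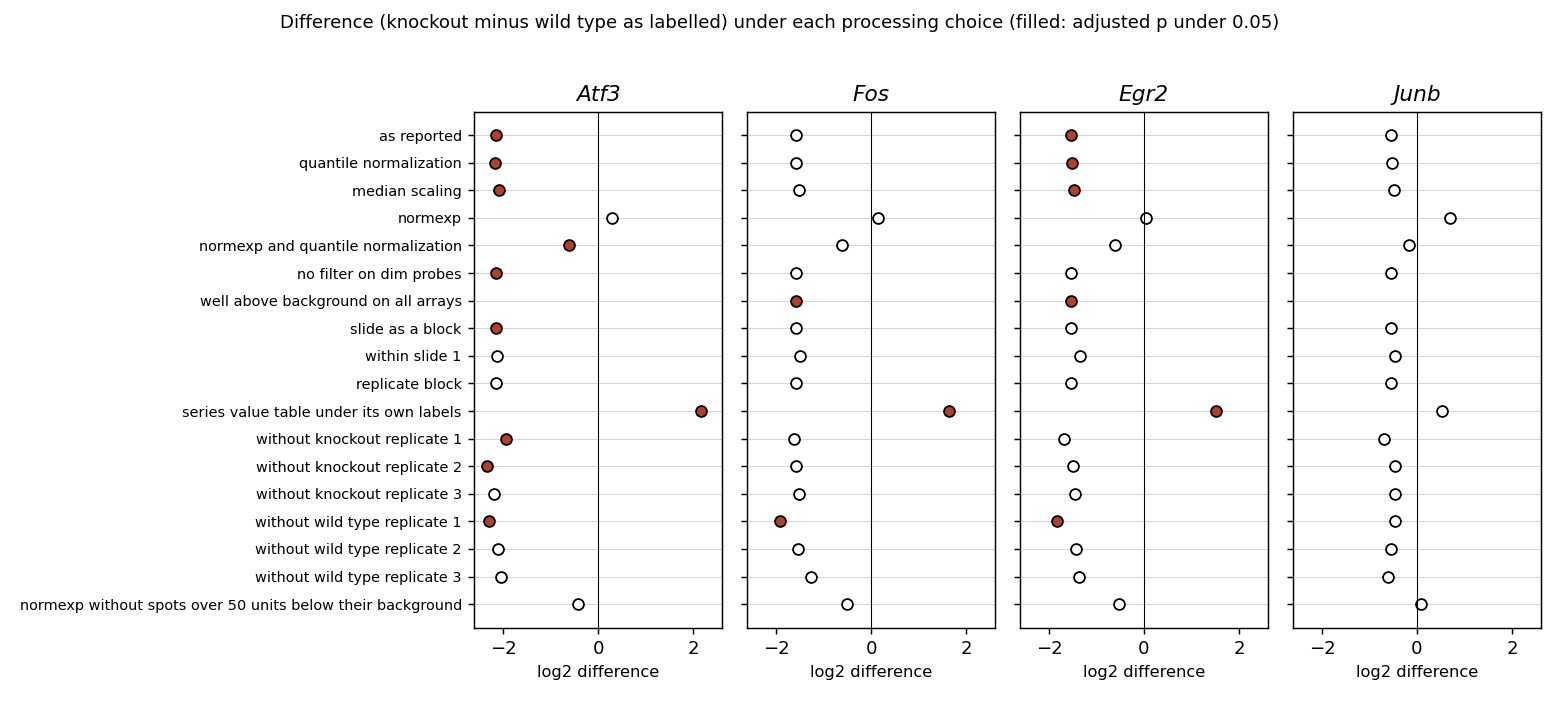
Log2 difference (x axis, knockout minus wild type as labelled) of Atf3, Fos, Egr2 and Junb under each processing choice (rows), filled where the adjusted p was under 0.05. Most points lie near the reported values, the normexp points lie between -0.61 and 0.69, and the points of the authors' value table under its own labels lie on the other side of 0.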

How the data were processed

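The scanner files hold linear spot intensity that the authors deposited, made with Feature Extraction 10.7.3.1 in 1 colour on a design annotated on mm9, per the file headers. The authors' value table also holds intensity on a linear scale, normalized in a way not given in the sources used here. Limma is named without a version in the submitters' processing notes. Per the labels' protocols, 200 ng of RNA was labelled with Cy3 for each array.

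Control spots were left out, spots flagged as outliers were set to missing, log2 processed signals were averaged per probe and the array's 75th percentile was subtracted. Array accessions were matched to RefSeq genes of GRCm38.p6, naming 26055 of 39429 probes. A probe was tested if well above background on at least 3 of 6 arrays with at least 2 values a group. The test was limma's moderated one (version 3.58.1, run in R 4.3.3, two-sided, group as the only term), with Benjamini-Hochberg adjustment over 31801 probes. It was checked on simulated arrays with independent normal noise. These held no slide effect and no outlying array, so the check does not cover either. Each gene was counted by its brightest complete probe. Normexp used spot and background medians, since no mean column was at hand, with an offset of 50. The number of arrays limits precision.

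The members and lists were chosen with earlier results of these data known. The rule named all 10 genes, Trp73, up to 4 called genes of each related list or the 2 with the smallest p, and the 5 related genes most like the mean of the members. Alternatives were other scaling, background correction, filters, slide and replicate blocks, gene means over probes, the value table and leaving out each mouse.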

Additional observations from a re-analysis of the deposited data

How the results depend on the processing

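The counts of members called lower (2) and higher (0) were within 1.5 times of these values under quantile normalization, median scaling, the filter for probes well above background on all arrays (Atf3 and Junb are then not tested, and Egr2 and Fos are the 2 called) and the mean over all probes of a gene (3 lower, Fos included, with 16947 tests). Members called lower numbered 1 with no filter on dim probes, 1 with slide as a block and 1 under normexp with quantile normalization. The gene called was Atf3 each time, and no other member was called. The count was 0 within slide 1, 0 under normexp and 0 under normexp without spots far below background. Under normexp limma called 0 of all probes, with 804 lower and 1149 higher at p under 0.05 before adjustment. Leaving out each mouse gave 0 to 3. Genes of the related lists called lower (8) numbered 13 with probes well above background on all arrays, 13 as gene means, 2 with slide as a block, 1 with no filter, 1 under normexp with quantile normalization, 0 within slide 1, 0 under normexp, 3 under normexp without the spots far below background, and 0 to 4 when leaving out each mouse. Deviations of same-numbered mice correlated over probes at -0.025, -0.082 and -0.09. The same-numbered arrays of replicates 2 and 3 lay on different slides, so these values cannot show whether the numbers pair mice. With the replicate block 0 members and 0 related genes were called lower (limma, 9 lower and 1 higher over all probes).

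The direction turned under normexp for Atf3 (0.30), Egr2 (0.044), Fos (0.15), Junb (0.69), Ier2 (0.30) and Nr4a1 (-0.048), where the median of all probes was 0.22. Nr4a1 was also -0.036 under normexp with quantile normalization and -0.038 under normexp without the spots far below background, where Junb was 0.079. Leaving out each mouse gave -0.057 to 0.077 for Fosb, -0.29 to 0.68 for Jun and -0.29 to 0.32 for Nr4a1. Under the value table's own labels, 0 members and 0 related genes were called lower, 3 members and 8 related genes were called higher, and the differences were 2.16 for Atf3, 1.51 for Egr2, 1.64 for Fos, 0.53 for Junb, 0.50 for Egr1, 0.35 for Ier2, -0.48 for Egr3, -0.34 for Jun, -0.068 for Fosb and -0.018 for Nr4a1. Signals of 17.7 to 183 units for Atf3, Fos, Egr2 and Junb, close to background, limit what their size can show.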
